A study of Mus musculus with 6 samples.

Results

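The genes described here encode the contractile apparatus of skeletal muscle and the factors that build it. They are 43 of the 54532 genes in a count table made from sciatic nerve RNA, chosen by gene name, and they were grouped by role into 12 genes of the thick filament, 9 of the thin filament, 5 of the Z disc and scaffold, 5 of excitation-contraction coupling, 3 acetylcholine receptor subunits, 5 metabolic enzymes and oxygen carriers, and 4 myogenic transcription factors. The study sequenced RNA of sciatic nerve at postnatal day 3 (P3), with 1 library from each of 3 control mice and 3 Dok6 mutants. The controls are labelled WT and the mutants Dok6 KO. The mutants lack an exon of Dok6, an adaptor protein of receptor tyrosine kinases, which had been flanked by loxP sites and was deleted by EIIA-cre. This Cre acts in the early fertilized egg, so that the deletion was not limited to nerve or to muscle. All mice were on a C57BL/6 background, and sexes were not distinguished. Mice are named here by genotype and number, as control 1 to 3 and mutant 1 to 3.

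In a muscle fibre, myosin of the thick filament pulls on actin of the thin filament, and troponin and tropomyosin open the actin filament to myosin when calcium is released from the sarcoplasmic reticulum. Many of these proteins come in developmental, slow and fast versions from separate genes. Embryonic (Myh3) and perinatal (Myh8) myosin heavy chains dominate muscle before and around birth, and the adult fast heavy chains (Myh2, Myh1, Myh4) and the slow one (Myh7) take over as fibres mature. Skeletal muscle fibres are not a cell type of nerve, which consists of axons, Schwann cells, fibroblasts, vessels and perineurium.

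Of the 43 genes, 42 had a count in at least 1 library, and 30 had enough reads to be tested. Values are CPM, counts divided by the scaled size of each library. The summed level of the 43 genes was 106.5, 104.6 and 87.4 CPM in control 1, 2 and 3, and it was 1002, 603 and 245 CPM in mutant 1, 2 and 3. Every mutant lay above every control, and the mutant mean (617 ± 378 CPM, SD, n = 3) was 6.20 times the control mean (99.5 ± 10.5 CPM). The mutants differed from each other far more than the controls did. In the quasi-likelihood test of edgeR, with p-values adjusted by Benjamini-Hochberg over all 17099 genes tested, 19 of the 30 genes were higher in the mutants at an adjusted p under 0.05, and none was lower. Among all genes tested, 8.62% were higher and 6.01% were lower. With the study's own threshold, a log2 fold change above 2 in addition, 16 of the 30 were higher, against 1.08% of all genes. The median log2 fold change was 2.43 over the 30 genes and 0.01 over all genes tested. Of the 30, 22 had every mutant above every control, as had 19.6% of all genes tested. A gene was tested when at least 3 libraries reached the level of the filter, so that 12 of the 30 genes, with fewer than 3 controls at that level, were tested only because of their mutant reads (Myh3, Myl1, Mylpf, Tnnt1, Tnnt3, Tnni1, Tnni2, Cacna1s, Atp2a1, Sln, Ckm and Chrna1). Of the other 18, 9 were higher, with a median log2 fold change of 1.61, against 8.31% of the genes in the whole table that reached the level in every control.

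How many genes were called depended on the libraries used. Without control 2, the test called 3 of the genes higher (Myl1, Mylpf and Sln), and in the whole table it called 56 genes higher instead of 1474. Without control 1, control 3, mutant 1, mutant 2 or mutant 3 it kept 13, 15, 14, 13 and 19 of the 19 calls. The limma voom test called 10, all among the 19, and the calls it lost were those of Myh3, Myh8, Mybpc1, Tnni2, Actn2, Atp2a1, Casq1, Ckm and Eno3 (adjusted p 0.0527 to 0.139). With a block for the replicate number, Myh3, Mybpc1, Actn2, Cacna1s, Casq1 and Eno3 missed the threshold (0.0501 to 0.0957). Keeping only genes with 10 counts in every library left 18 of the genes, of which 9 were called. In bulk tissue, fewer cells of a type and less RNA per cell cannot be told apart.

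**Figure D1:**
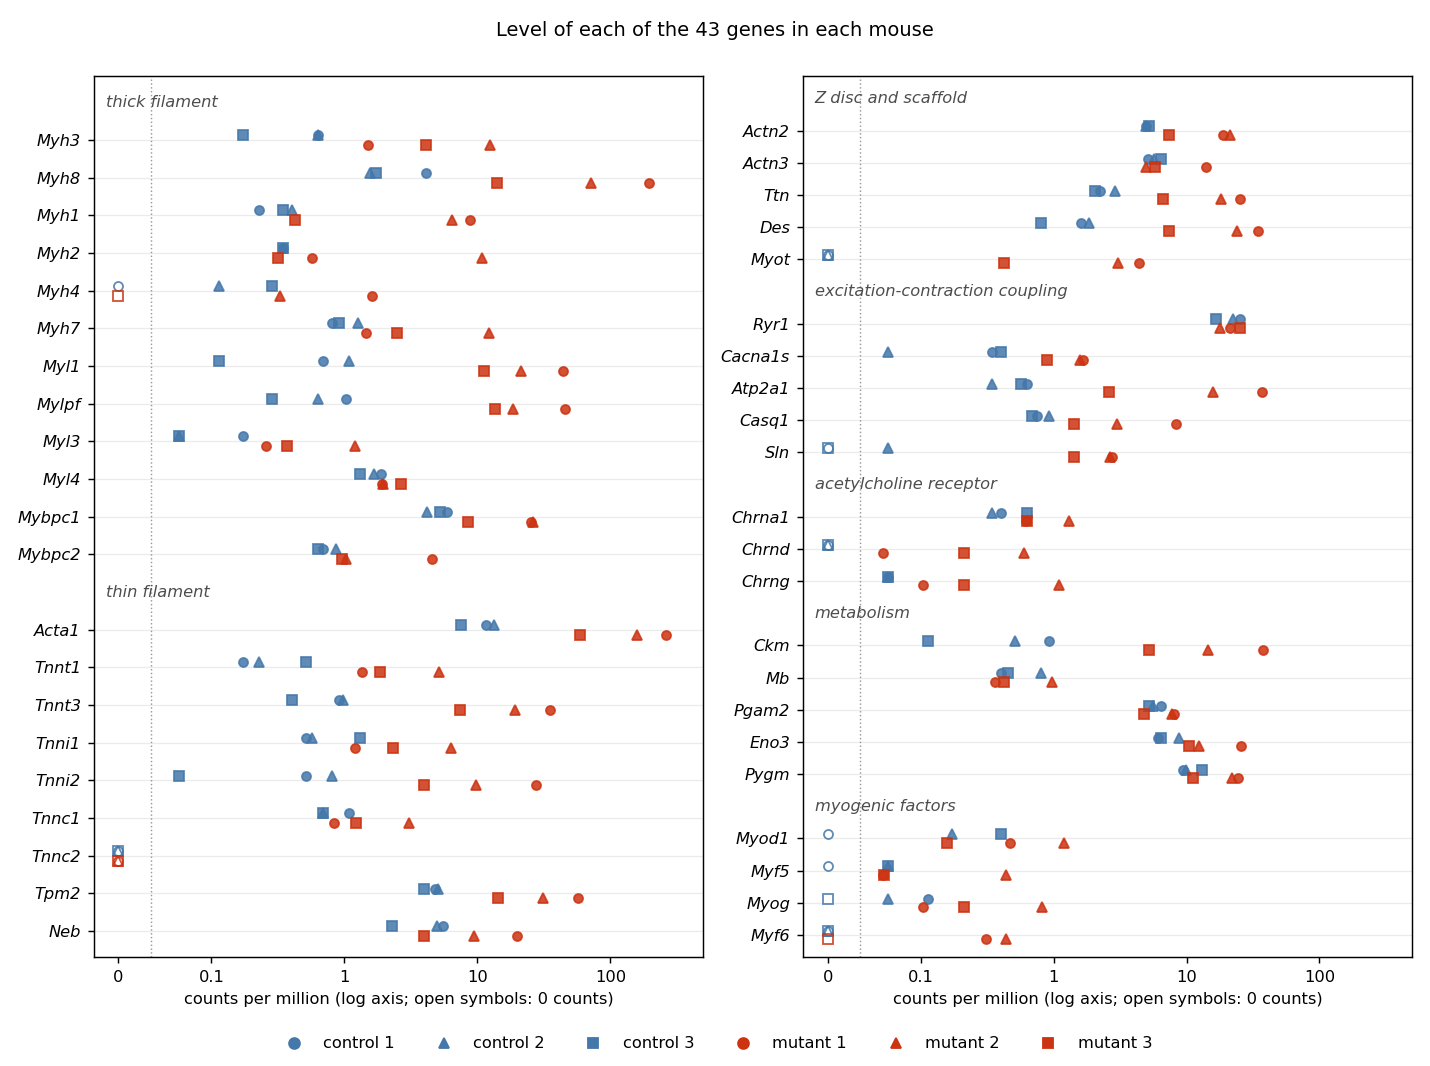
CPM of each of the 43 genes in each mouse on a log axis, with controls in blue, mutants in red, a symbol for each mouse number, and open symbols at the left for 0 counts. Most blue points lie below 2 CPM, and for the genes of the filaments the red points mostly lie to their right.

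Of the 12 thick filament genes, 8 were tested and 5 were called higher. Myh8, the perinatal heavy chain, was at 4.07, 1.55 and 1.72 CPM in the controls and at 196, 71.9 and 14.0 CPM in mutant 1, 2 and 3. The lowest mutant was above the highest control, and the log2 fold change was 5.26 (SE 0.93, adjusted p = 0.0144). Mylpf, the fast regulatory light chain, was at 1.03, 0.631 and 0.286 CPM in the controls and at 45.4, 18.5 and 13.5 CPM in the mutants, with a log2 fold change of 5.30 (SE 0.59, adjusted p = 0.00588). Myl1, the fast essential light chain, was at 0.689, 1.09 and 0.114 CPM in the controls and at 44.4, 21.4 and 11.2 CPM in the mutants, with a log2 fold change of 5.33 (SE 0.67, adjusted p = 0.00716). In all 3 genes mutant 1 was highest and mutant 3 lowest. Mybpc1, the slow myosin binding protein C, began from a higher level, with 5.91, 4.18 and 5.2 CPM in the controls and 25.5, 26.3 and 8.48 CPM in the mutants, and its log2 fold change was 1.98 (SE 0.39, adjusted p = 0.0192). Myh3, the embryonic heavy chain, was at 0.631, 0.631 and 0.172 CPM in the controls and at 1.5, 12.4 and 4.13 CPM in the mutants, with a log2 fold change of 3.64 (SE 0.81, adjusted p = 0.025). Here mutant 2 was highest and mutant 1 lowest. The log2 fold change without mutant 1 was 4.13 for Myh8, 4.61 for Mylpf and 4.68 for Myl1, and that of Myh3 was 2.54 without mutant 2. Of these calls, those of Myl1 and Mylpf held without any 1 library, with adjusted p up to 0.0495. Leaving out control 2 gave an adjusted p of 0.0841 for Myh8, 0.102 for Myh3 and 0.0957 for Mybpc1. Myh3 also missed the threshold without control 1 (0.0624), control 3 (0.0667) or mutant 2 (0.0555), and Mybpc1 without mutant 1 (0.0527) or mutant 2 (0.054).

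The remaining thick filament genes were not called or not tested. Myh7, the slow heavy chain that the heart also uses, was at 0.803, 1.26 and 0.915 CPM in the controls and at 1.45, 12.2 and 2.49 CPM in the mutants. Mutant 2 alone was far above the controls, and the log2 fold change of 2.42 (SE 0.76) had an adjusted p of 0.0635. Without mutant 2 the log2 fold change was 0.98 (adjusted p = 0.175), and without mutant 1 or mutant 3 the adjusted p was 0.04 and 0.0437. The 3 adult fast heavy chains did not pass the filter on low counts. Myh1 (type IIx) had 4, 7 and 6 reads in the controls and 169, 118 and 8 in the mutants. Myh2 (type IIa) had 6 reads in each control and 11, 197 and 6 in the mutants, so that mutant 2 alone stood out. Fitted without the filter, Myh1 had a log2 fold change of 3.98 (adjusted p = 0.0005) and Myh2 one of 3.46 (adjusted p = 0.0116), although mutant 3 was close to the controls in both. Myh4 (type IIb) had 0, 2 and 5 reads in the controls and 31, 6 and 0 in the mutants, and the genotypes overlapped. Myl3, the slow essential light chain, had 3, 1 and 1 reads in the controls and 5, 22 and 7 in the mutants. Myl4, the light chain of embryonic and atrial muscle, was at 1.89, 1.66 and 1.32 CPM in the controls and at 1.92, 1.96 and 2.65 CPM in the mutants (log2 fold change 0.42, adjusted p = 0.331). Mybpc2, the fast myosin binding protein C, was at 4.56 CPM in mutant 1 but at 1.04 and 0.954 CPM in the others, close to the 0.629 to 0.860 CPM of the controls (log2 fold change 1.58, adjusted p = 0.121, and 0.45 on the log2 scale without mutant 1).

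Acta1, skeletal alpha actin, was per length the most abundant of the 43 genes in every mutant. It was at 11.5, 13.4 and 7.49 CPM in the controls (10.8 ± 3.03, SD, n = 3) and at 261, 158 and 59.1 CPM in the mutants (159 ± 101). The log2 fold change was 3.88 (SE 0.50, adjusted p = 0.00717), and without control 2 the adjusted p was 0.0519. Acta1 made up 26.0%, 26.3% and 24.1% of the summed CPM of the 43 genes in mutant 1, 2 and 3, and 10.8%, 12.8% and 8.57% in the controls. This share hardly varied among the mutants, while the sum itself did. Per kilobase of gene length, Acta1 was at 170, 103 and 38.5 CPM in the mutants, above Mylpf, the next, at 42.7, 17.5 and 12.7 CPM.

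Among the troponin and tropomyosin genes, Tnnt3, Tnni2, Tpm2 and Tnnt1 were called higher. Tnnt3, fast troponin T, was at 0.918, 0.975 and 0.400 CPM in the controls and at 35.2, 19.1 and 7.37 CPM in the mutants (log2 fold change 4.74, SE 0.62, adjusted p = 0.00717). Tnni2, fast troponin I, was at 0.516, 0.803 and 0.0572 CPM in the controls and at 27.8, 9.71 and 3.97 CPM in the mutants (log2 fold change 4.89, SE 0.86, adjusted p = 0.0142). Tpm2, beta tropomyosin, was at 4.82, 5.04 and 3.95 CPM in the controls and at 57.5, 30.9 and 14.2 CPM in the mutants (log2 fold change 2.89, SE 0.45, adjusted p = 0.0112). In these genes no mutant overlapped a control, and the order was mutant 1, mutant 2, mutant 3. Tnnt1, slow troponin T, was at 0.172, 0.229 and 0.515 CPM in the controls and at 1.35, 5.18 and 1.85 CPM in the mutants, with the highest value in mutant 2 (log2 fold change 3.16, SE 0.65, adjusted p = 0.0209). When control 2 was left out, the adjusted p was 0.0519 for Tnnt3, 0.0727 for Tnni2, 0.0683 for Tpm2 and 0.0998 for Tnnt1, and without control 1 it was 0.0593 for Tnnt1. Without mutant 1 the log2 fold change was 4.10 for Tnnt3, 3.88 for Tnni2 and 2.29 for Tpm2, and without mutant 2 it was 2.36 for Tnnt1.

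The other slow troponins had their highest value in mutant 2 but overlapped the controls. Tnni1, slow troponin I, was at 0.516, 0.573 and 1.32 CPM in the controls and at 1.19, 6.33 and 2.33 CPM in the mutants (log2 fold change 2.02, SE 0.64, adjusted p = 0.0668). Without mutant 2 its log2 fold change was 1.13 (adjusted p = 0.217), and without mutant 1 it was 2.42 (adjusted p = 0.045). Tnnc1, the troponin C of slow and cardiac muscle, was at 0.686 to 1.09 CPM in the controls and at 0.830, 3.05 and 1.22 CPM in the mutants (adjusted p = 0.198). Neb, nebulin, which runs along the thin filament, was at 2.29 to 5.51 CPM in the controls and at 19.9, 9.49 and 3.97 CPM in the mutants (log2 fold change 1.39, adjusted p = 0.112). Without mutant 1 its log2 fold change was 0.67 (adjusted p = 0.38), and without mutant 3 it was 1.79 (adjusted p = 0.0273). Tnnc2, fast troponin C, was listed at 0 in all 6 libraries, although its partners Tnni2 and Tnnt3 had between 75 and 678 reads in the mutants. Of the exon bases of Tnnc2, 74.0% lie under exons of Ube2c on the other strand, and whether this affected its count was not tested.

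Of the Z disc and scaffold genes, Des, Ttn and Actn2 were called. Desmin (Des), the intermediate filament of muscle, was at 1.61, 1.83 and 0.801 CPM in the controls and at 34.5, 24 and 7.37 CPM in the mutants (log2 fold change 3.95, SE 0.57, adjusted p = 0.00929). Titin (Ttn), the elastic filament that spans from Z disc to M line, was at 2.24, 2.92 and 2.06 CPM in the controls and at 25.1, 18.1 and 6.62 CPM in the mutants (log2 fold change 2.78, SE 0.45, adjusted p = 0.0121). The order of the mice was the same in both genes. Actn2, the alpha actinin of all fibres, was at 4.99, 4.93 and 5.2 CPM in the controls and at 18.8, 21.1 and 7.42 CPM in the mutants (log2 fold change 1.64, SE 0.35, adjusted p = 0.0222). Actn3, the alpha actinin of fast fibres, was higher than the controls in mutant 1 only, with 14.0 CPM against 5.11 to 6.41 CPM, while mutant 2 and 3 were at 4.96 and 5.83 CPM (log2 fold change 0.52, adjusted p = 0.353). Without mutant 1 its log2 fold change was -0.09. Myot, myotilin, had no read in any control and 84, 56 and 8 reads in the mutants. With a floor of 3 counts per control library, its mutant mean was at least 15.2-fold higher, and without the filter its adjusted p was 8.34e-05. Without control 2 the adjusted p was 0.0618 for Des, 0.0675 for Ttn and 0.0998 for Actn2, and that of Actn2 was 0.0531 to 0.0629 without control 1, control 3, mutant 1 or mutant 2.

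Among the 30 genes tested, the largest fitted fold change and the smallest were both in genes of excitation-contraction coupling. Sln, sarcolipin, an inhibitor of the sarcoplasmic calcium pump, had 1 read over all controls and 53, 49 and 27 reads in the mutants. Its mutants differed less than those of most called genes, and the ratio of the mean CPM was 120 (95% counting interval 21.1 to 4759). The fitted log2 fold change of 6.46 (adjusted p = 0.00588) rests on that 1 control read. Atp2a1, the calcium pump SERCA1 of fast fibres, was at 0.631, 0.344 and 0.572 CPM in the controls and at 37.2, 15.9 and 2.60 CPM in the mutants (log2 fold change 5.15, SE 0.94, adjusted p = 0.0153). Casq1, calsequestrin, which stores the calcium, was at 0.746, 0.917 and 0.686 CPM in the controls and at 8.30, 3.00 and 1.43 CPM in the mutants (log2 fold change 2.43, SE 0.62, adjusted p = 0.0354). Both genes were highest in mutant 1 and lowest in mutant 3. Cacna1s, the voltage sensor of the transverse tubule, was at 0.344, 0.0573 and 0.400 CPM in the controls and at 1.66, 1.58 and 0.901 CPM in the mutants (log2 fold change 2.34, SE 0.56, adjusted p = 0.0294). Ryr1, the calcium release channel that Cacna1s opens, was at 25.4, 22.2 and 16.6 CPM in the controls and at 21.3, 17.9 and 25.1 CPM in the mutants. The genotypes overlapped fully, and the log2 fold change was 0.00 (SE 0.18, adjusted p = 0.995). Ryr1 made up 19.0% to 23.8% of the summed CPM of the 43 genes in the controls and 2.13%, 2.98% and 10.2% in mutant 1, 2 and 3. Without mutant 1 the log2 fold change was 4.15 for Atp2a1 and 1.49 for Casq1. Without control 2 the adjusted p was 0.087 for Atp2a1, 0.121 for Casq1 and 0.0994 for Cacna1s. Casq1 missed the threshold without any 1 of the other libraries but mutant 3 (0.0619 to 0.0932), and Cacna1s without control 1 (0.0639), mutant 1 (0.0841) or mutant 2 (0.0841).

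Ryr1 was not alone in having a level in the controls. While 24 of the 43 genes were under 1 CPM in every control, 8 were above 4 CPM in every control, namely Ryr1, Pygm, Eno3, Pgam2, Actn3, Actn2, Mybpc1 and Acta1. Of these 8, 4 were called, Acta1, Mybpc1, Actn2 and Eno3.

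**Figure D2:**
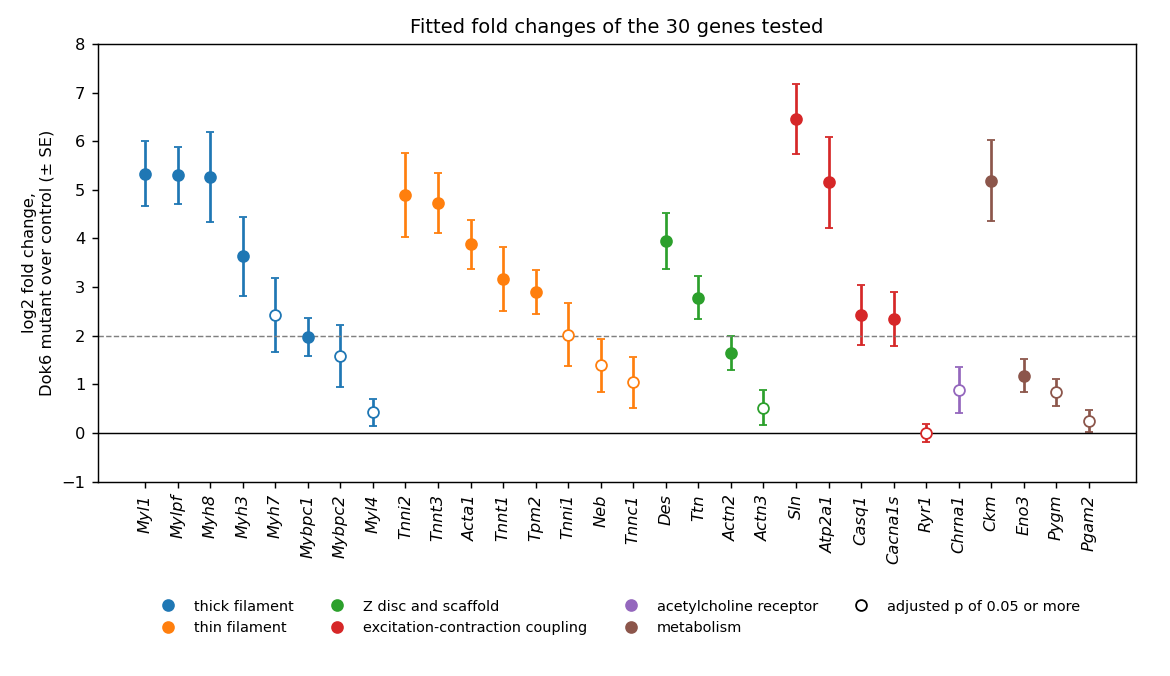
Fitted log2 fold change, Dok6 mutant over control, of the 30 genes tested, with its standard error, ordered by role. Filled points had an adjusted p under 0.05, the dashed line marks a log2 fold change of 2, and the points run from 0.00 (Ryr1) to 6.46 (Sln).

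The metabolic genes were mixed. Ckm, muscle creatine kinase, which regenerates ATP from phosphocreatine, was at 0.918, 0.516 and 0.114 CPM in the controls and at 37.3, 14.5 and 5.25 CPM in the mutants (log2 fold change 5.19, SE 0.83, adjusted p = 0.0121). Eno3, the muscle form of the glycolytic enzyme enolase, was at 6.14, 8.71 and 6.46 CPM in the controls and at 25.5, 12.4 and 10.4 CPM in the mutants (log2 fold change 1.18, SE 0.33, adjusted p = 0.048). Ckm rose from near 0 and Eno3 from a level already present, and without mutant 1 their log2 fold changes were 4.24 and 0.68. The adjusted p without control 2 was 0.0747 for Ckm and 0.114 for Eno3, and Eno3 also missed the threshold without control 1 (0.127), control 3 (0.111), mutant 1 (0.0987) or mutant 2 (0.0683). Pygm, muscle glycogen phosphorylase, was at 9.47 to 13.1 CPM in the controls and at 24.5, 22.1 and 11.2 CPM in the mutants, so that mutant 3 lay within the controls (log2 fold change 0.83, adjusted p = 0.0764). Without mutant 1 the log2 fold change of Pygm was 0.62 (adjusted p = 0.218), and without mutant 3 it was 1.11 (adjusted p = 0.0134). Pgam2, muscle phosphoglycerate mutase, was at 5.26 to 6.43 CPM in the controls and at 4.77 to 8.04 CPM in the mutants (adjusted p = 0.47). Mb, myoglobin, the oxygen store of slow fibres, had 7, 14 and 8 reads in the controls and 7, 18 and 8 in the mutants and was not tested. Of the exon bases of Mb, 31.9% are shared with other genes.

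The muscle acetylcholine receptor, which receives the motor nerve's signal, is built from alpha, beta and delta subunits with a gamma subunit that is fetal and an epsilon subunit that replaces it. Chrna1 (alpha) was at 0.402, 0.344 and 0.629 CPM in the controls and at 0.622, 1.31 and 0.636 CPM in the mutants (log2 fold change 0.89, SE 0.47, adjusted p = 0.223). Chrnd (delta) had no read in any control and 1, 11 and 4 reads in the mutants, a mean at least 1.68-fold higher than a floor of 3 counts per control. Chrng (fetal gamma) had 1 read in each control and 2, 20 and 4 in the mutants, a ratio of 8.03 (95% counting interval 2.46 to 41.5). In all 3 subunits mutant 2 was highest, and mutant 1, which had the most sarcomeric RNA, was lowest.

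The 4 myogenic transcription factors had at most 22 reads in any library, and none passed the filter of the test. Myod1, which commits cells to the muscle lineage, had 0, 3 and 7 reads in the controls and 9, 22 and 3 in the mutants. Myf5, its early partner, had 0, 1 and 1 reads in the controls and 1, 8 and 1 in the mutants. Myog, myogenin, which drives differentiation, had 2, 1 and 0 reads in the controls and 2, 15 and 4 in the mutants. Myf6 (MRF4), of maturing fibres, had none in the controls and 6, 8 and 0 in the mutants. Every one was highest in mutant 2, and all overlapped between genotypes. At this depth, 3 counts correspond to 0.156 to 0.172 CPM, and most control values were at or under it. From the summed reads, scaled to library size, the ratio of mutants to controls was 6.49 for Myog (95% counting interval 1.94 to 34.0) and 4.64 for Myf5 (0.988 to 43.5), with most of the mutant reads from mutant 2, and Myf6 was at least 1.45-fold higher than the floor. Fitted without the filter, the 4 factors had an adjusted p of 0.0847 to 0.442. This floor and the intervals here cover counting error only.

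The heavy chain genes give a direct reading of isoform use within each mouse, when counts are divided by gene length. Perinatal Myh8 made up 88.6%, 50.3% and 52.3% of the 6 heavy chains in mutant 1, 2 and 3. Embryonic Myh3 made up 1.32%, 16.9% and 30.1%. Thus embryonic and perinatal chains together were the larger part in every mutant, but their balance differed between mice. The 3 adult fast chains together made up 9.19%, 21.2% and 4.90%, and in mutant 2 the larger part of that came from Myh2 (12.4%), which made up 0.425% in mutant 1. Slow Myh7 made up 0.897%, 11.6% and 12.7%. These shares rested on 4047, 2091 and 403 heavy chain reads in the mutants. As a share of reads, Myh3 was at 0.717% (95% exact binomial interval 0.480 to 1.03) in mutant 1, 10.9% (9.60 to 12.3) in mutant 2 and 19.4% (15.6 to 23.6) in mutant 3, and these intervals do not overlap. Myh7 was at 0.692% (0.460 to 0.998), 10.7% (9.37 to 12.1) and 11.7% (8.70 to 15.2) of reads, so mutant 2 and 3 did not differ beyond counting error while mutant 1 lay below both.

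In the controls, only 106, 75 and 66 heavy chain reads were counted. Myh8 made up 55.1%, 25.7% and 33.9% per length, Myh3 16.6%, 20.3% and 6.59%, Myh7 14.9%, 28.6% and 24.7%, and the adult fast chains 13.4%, 25.4% and 34.8%. The exact intervals of the read shares in controls were wide, from 25.2% to 47.9% for Myh8 in control 2. The length used for Myh8, 11772 bases, counts all its annotated exon bases, whereas its longest coding transcript has 6149 bases. With transcript lengths Myh8 reached 93.3%, 62.9% and 65.3% in the mutants, the adult fast chains 5.28%, 15.5% and 3.50%, Myh3 0.730%, 11.1% and 19.7% and Myh7 0.682%, 10.5% and 11.5%. The 5 heavy chain genes other than Myh7 lie side by side on chromosome 11 (GRCm38, from Myh3 at 67078300 to the end of Myh8 at 67308634, in the order Myh3, Myh2, Myh1, Myh4, Myh8), and the neighbours Myh3 and Myh2 at one end were highest in mutant 2 while Myh1, Myh4 and Myh8 at the other were highest in mutant 1.

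**Figure D3:**
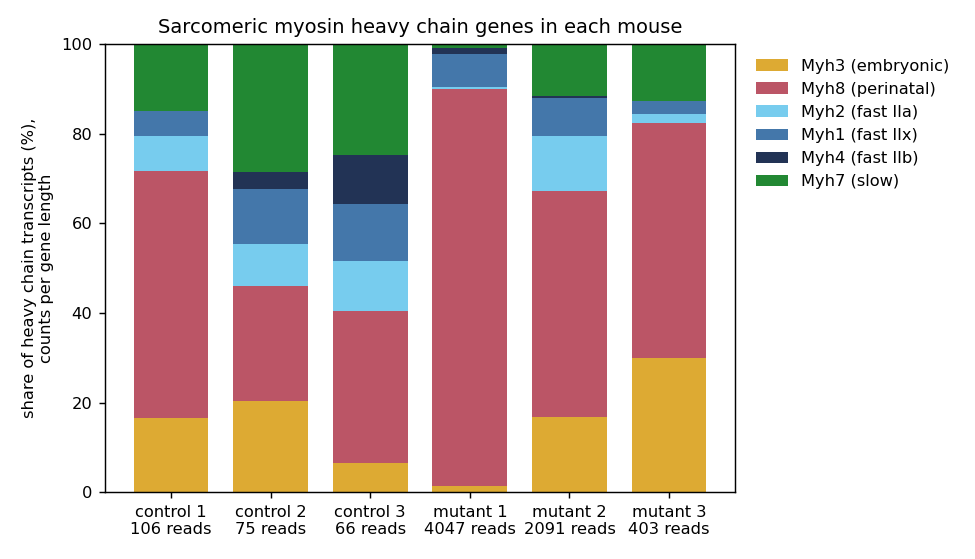
Stacked share of the 6 sarcomeric myosin heavy chain genes in each mouse, in percent of counts divided by gene length, with the number of heavy chain reads under each bar. The Myh8 share is 88.6% in mutant 1 and near 50% in mutant 2 and 3, and the control bars rest on 66 to 106 reads.

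Embryonic, slow and fast versions of the same protein were compared as a log2 ratio within each mouse, after a pseudocount of 1 was added to the scaled counts. At low counts the pseudocount and a level already present in the controls both enter such a ratio. With 3 mice against 3, the exact two-sided permutation test cannot go below p = 0.1, and 8 pairs were tested. In 4 pairs the genotypes did not overlap on this scale (exact p = 0.1, adjusted p = 0.2), and in 3 of these they did not overlap as shares of reads either. The ratio of Tnni1 to Tnni2 (slow to fast troponin I) was 0.00, -0.45 and 3.61 in the controls and -4.48, -0.61 and -0.76 in the mutants, a difference of -3.00. Without control 3 or mutant 1 this difference was -1.72 and -1.74. The ratio of Myl3 to Myl1 (slow to fast light chain) was lower in the mutants by a difference of -3.44, but Myl3 was 3 of 15, 1 of 20 and 1 of 3 reads of both genes in the controls and 5 of 861, 22 of 415 and 7 of 218 in the mutants. As a share of reads, control 2 (5.0%) and mutant 2 (5.30%) thus overlapped, and the gap between them rests on the pseudocount. The ratio of Myl4 to Myl1 (embryonic to fast) was 1.39, 0.59 and 3.02 in the controls and -4.49, -3.41 and -2.06 in the mutants, a difference of -4.98 toward the fast gene. The ratio of Actn2 to Actn3 went the other way, from -0.03, -0.22 and -0.30 in the controls to 0.43, 2.08 and 0.35 in the mutants, a difference of 1.13 away from the fast gene, and of 0.57 without mutant 2. For Tnnt1 to Tnnt3 (difference -1.62, exact p = 0.4), Mybpc1 to Mybpc2 (0.66, exact p = 0.4), Myh3 to Myh8 (-1.49, exact p = 0.6) and Tnnc1 to Tnnc2 (0.82, exact p = 0.2, with Tnnc2 at 0 throughout) the genotypes overlapped. In reads, Tnni1 was 4.12% (95% exact interval 2.63 to 6.12) of both troponin I genes in mutant 1, 39.5% (33.8 to 45.3) in mutant 2 and 37.0% (28.3 to 46.3) in mutant 3. In the controls it was 9 of 18, 10 of 24 and 23 of 24 reads, and only control 3 lay clearly above mutant 2 and 3. Tnnt1 gave the same picture, with 3.69% (2.43 to 5.37), 21.3% (17.6 to 25.4) and 20.1% (14.4 to 26.9) of both troponin T genes in mutant 1, 2 and 3. Mutant 1 was therefore the mouse with the strongest bias to the fast version in both troponins.

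Sorting the genes by isoform class separated the mutants. Of the 12 fast genes, 11 had reads, and 10 of these were higher in mutant 1 than in mutant 2, with a median ratio of mutant 2 to mutant 1 of 0.409. The exception was Myh2, with a ratio of 18.8. All 6 slow genes were higher in mutant 2 (median 4.24, from 1.03 for Mybpc1 to 8.38 for Myh7), as were the 3 embryonic genes (1.02 for Myl4, 8.27 for Myh3 and 10.5 for Chrng). Perinatal Myh8 went with the fast genes, at 0.367. The 7 receptor subunits and myogenic factors (Chrng, already counted as embryonic, among them) were all higher in mutant 2, with a median ratio of 7.89, though on at most 24 reads each. The other 15 genes, which were put in none of these classes, ran from 0.389 (Ckm) to 2.70 (Mb) and overlapped both classes. Among them Neb was at 0.478, Tpm2 at 0.538, Acta1 at 0.607, Des at 0.696, Ttn at 0.721 and Actn2 at 1.12. Mutant 3 had less of almost every called gene, 17 of 19 being lowest there, yet 5 of the 6 slow genes and all 3 embryonic genes were higher in mutant 3 than in mutant 1, and none of the fast genes was. These are 3 single mice without replicates, and the comparison among them was not tested.

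**Figure D4:**
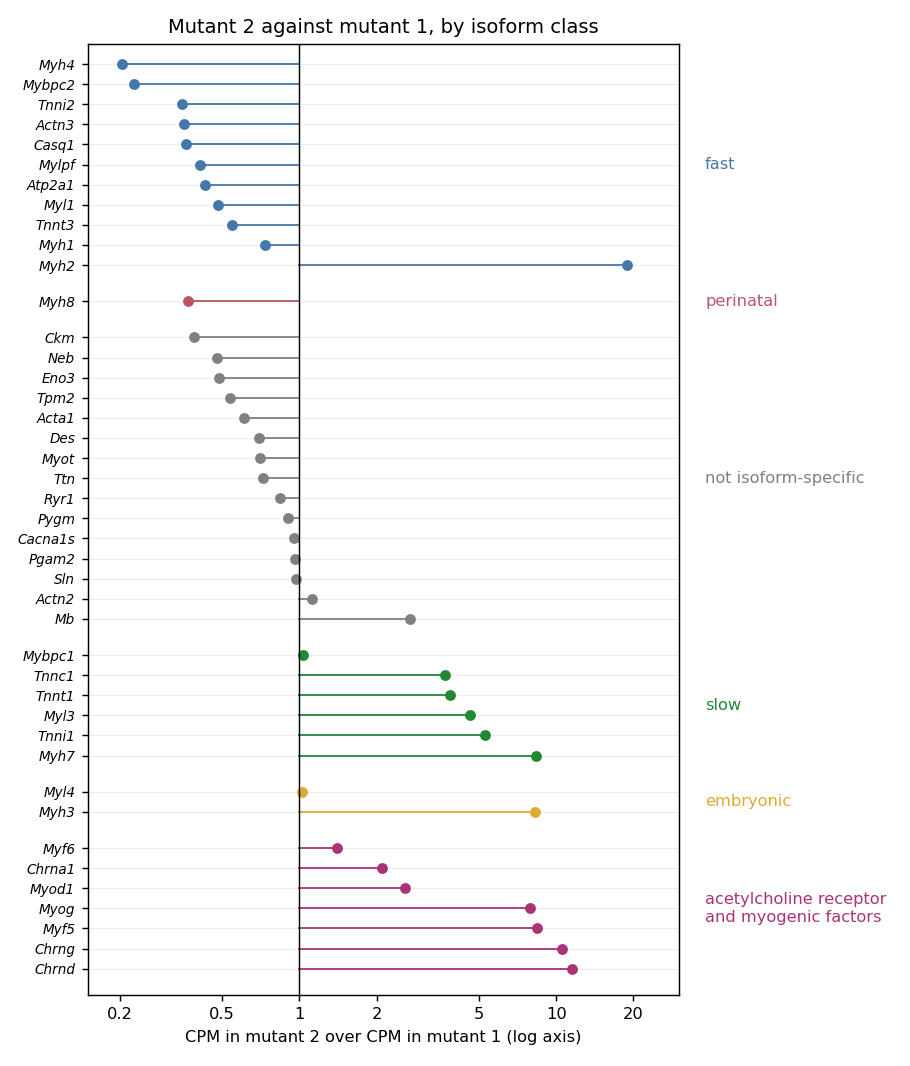
Ratio of the CPM in mutant 2 to that in mutant 1 for the 42 genes with reads, on a log axis, sorted by isoform class, with the receptor subunits and myogenic factors set apart. Fast genes lie left of 1 except Myh2, and slow and embryonic genes lie right of it.

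The regions before the transcription start are shown for abundant called genes, to let their sequence be read beside their levels. RefSeq (GRCm38.p6) windows of 300 bases, 250 before and 50 after the start, were matched by symbol for 34 of the 43 genes. Muscle promoters are known for E-boxes, which bind the myogenic factors as dimers with E proteins, and for MEF2 sites and CArG boxes, which bind MEF2 and serum response factor. The E-box CAGCTG was in the window of 18 of the 34 genes (52.9%) and in 18.3% of the windows of all 27025 genes. CACCTG, read on both strands, was in 29.4% and 22.6%, any CANNTG, which includes both, in 85.3% and 75%, TATAAA on the gene's strand in 20.6% and 9.77%, a CArG box in 8.82% and 1.81%, and a MEF2 site in its strict form in 2.94% and 0.636%. A looser MEF2 form was in 14.7% and 3.70%, with Myh8, Myh1, Myh4, Ttn and Pgam2 among the genes. Of the 16 called genes in the table, 8 had no annotated exon within the 250 bases upstream. Of these 8, the 5 with the highest mean CPM in the mutants are printed with Myh3, the embryonic counterpart of Myh8. Each is given 5′ to 3′ on the gene's strand, ending at the base before the start, with the 5 motifs other than CANNTG and the looser MEF2 form in capitals.
Acta1 (minus strand of chr8:123894776-123895025): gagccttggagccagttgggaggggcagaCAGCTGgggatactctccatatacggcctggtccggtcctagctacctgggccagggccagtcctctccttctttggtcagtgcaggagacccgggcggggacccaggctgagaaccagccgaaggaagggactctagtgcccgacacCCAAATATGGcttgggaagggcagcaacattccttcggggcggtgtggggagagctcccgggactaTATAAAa
Myh8 (plus strand of chr11:67276874-67277123): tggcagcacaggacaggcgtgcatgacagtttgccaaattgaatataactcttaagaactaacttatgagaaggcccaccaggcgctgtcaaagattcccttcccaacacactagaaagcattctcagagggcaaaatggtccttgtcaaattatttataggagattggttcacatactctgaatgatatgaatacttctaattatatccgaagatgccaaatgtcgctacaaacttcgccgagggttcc
Mylpf (plus strand of chr7:127211358-127211607): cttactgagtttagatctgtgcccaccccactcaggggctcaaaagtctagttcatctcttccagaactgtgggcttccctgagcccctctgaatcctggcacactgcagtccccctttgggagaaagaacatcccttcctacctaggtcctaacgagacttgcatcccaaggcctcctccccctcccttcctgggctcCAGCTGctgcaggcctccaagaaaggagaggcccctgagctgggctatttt
Des (plus strand of chr1:75360042-75360291): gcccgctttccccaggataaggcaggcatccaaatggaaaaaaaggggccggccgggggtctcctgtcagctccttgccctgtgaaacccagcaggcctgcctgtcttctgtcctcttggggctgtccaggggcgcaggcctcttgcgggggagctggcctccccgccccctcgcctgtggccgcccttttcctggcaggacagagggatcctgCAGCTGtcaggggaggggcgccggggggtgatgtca
Ttn (minus strand of chr2:76982548-76982797): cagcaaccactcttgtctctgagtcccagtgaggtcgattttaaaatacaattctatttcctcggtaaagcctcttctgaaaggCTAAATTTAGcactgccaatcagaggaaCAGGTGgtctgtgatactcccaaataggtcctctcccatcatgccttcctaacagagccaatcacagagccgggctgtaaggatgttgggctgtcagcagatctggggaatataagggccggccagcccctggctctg
Myh3 (plus strand of chr11:67078050-67078299): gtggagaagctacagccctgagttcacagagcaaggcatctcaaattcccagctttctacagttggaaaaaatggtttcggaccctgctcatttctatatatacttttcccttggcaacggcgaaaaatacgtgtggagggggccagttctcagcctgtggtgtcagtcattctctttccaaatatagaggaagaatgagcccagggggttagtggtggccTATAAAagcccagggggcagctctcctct

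The Acta1 window held CAGCTG at -221, a CArG box at -73 and TATAAA at -7, counted from the annotated start. Mylpf and Des each held 1 CAGCTG, at -51 and -36. Ttn held a MEF2 site at -166 and CACCTG at -138, and Myh3 held TATAAA at -29. Myh8, at a mean of 94.0 CPM in the mutants, held none of the 5 motifs set in capitals. CANNTG and the looser MEF2 form, which the Myh8 window held, were not marked. A match in such a window is a run of letters and not a measured binding site.

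A further 81 skeletal muscle genes outside the 43 were read from the same fit. Of these, 59 were tested, 16 were higher at an adjusted p under 0.05, 13 of them past a log2 fold change of 2, none was lower, and the median log2 fold change was 0.74. Of the 59, 18 were tested only because of their mutant reads, with Actc1, Casq2, Myoz1, Apobec2, Myom1 and Myom3 among them. Of the other 41, 3 were higher (7.32%, against the 8.31% of all such genes), with a median log2 fold change of 0.36. Actc1, the cardiac and fetal skeletal actin, was at 0.746, 0.745 and 0 CPM in the controls and at 4.56, 7.85 and 6.78 CPM in the mutants (log2 fold change 3.67, adjusted p = 0.0135). Casq2, the calsequestrin of slow and cardiac muscle, was at 0.344 to 0.686 CPM in the controls and at 8.66, 6.16 and 2.86 CPM in the mutants (log2 fold change 3.55, adjusted p = 0.0075). Myoz1, a Z disc protein of fast fibres, was at 0 to 0.229 CPM in the controls and at 5.24, 1.85 and 1.27 CPM in the mutants (log2 fold change 4.32, adjusted p = 0.0171). Apobec2, Itgb1bp2 and the M band genes Myom1 and Myom3 were also higher, with log2 fold changes of 3.64, 2.01, 2.55 and 1.80. Without control 2 these 7 genes had an adjusted p of 0.057 to 0.136, and Itgb1bp2, Myom1 and Myom3 missed the threshold also without control 1, control 3, mutant 1 or mutant 2 (0.0538 to 0.109).

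Of the partners of the acetylcholine receptor at the neuromuscular junction, those that were tested did not pass. Musk, the kinase that clusters the receptor, was at 0.515 to 0.975 CPM in the controls and at 1.71, 1.80 and 1.11 CPM in the mutants (log2 fold change 0.94, adjusted p = 0.117). Dok7, a relative of Dok6 that activates Musk, was at 12.2 to 16.1 CPM in the controls and at 13.6 to 14.7 CPM in the mutants (log2 fold change 0.02, adjusted p = 0.935). Chrnb1 (beta subunit) had a log2 fold change of 0.17 (adjusted p = 0.721). Rapsn, which anchors the receptor, had 3, 2 and 2 reads in the controls and 10, 20 and 17 in the mutants, and Chrne (adult epsilon subunit) had 0 to 3 and 0 to 5 reads. Neither was tested. Of 8 further genes that denervated muscle is known to raise, 2 were higher. Among genes used as markers of satellite cells, the stem cells of muscle, none of the 7 tested passed. Pax7 was at 2.35, 2.12 and 0.572 CPM in the controls and at 2.49, 1.53 and 2.38 CPM in the mutants (adjusted p = 0.644). In Cdh15 every mutant lay above every control (log2 fold change 0.57, adjusted p = 0.118), and in Sdc4 every mutant lay below (-0.53, adjusted p = 0.0902). Whether these genes read satellite cells in this tissue was not tested. Of the 3 cardiac markers tested none passed.

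Markers of other cell types moved with genotype and between mice as well, and the label of the tissue was checked against them. Dok6 itself was at 17.8, 11.9 and 17.5 CPM in the controls and at 7.26, 5.78 and 7.15 CPM in the mutants (log2 fold change -1.23, adjusted p = 0.0118). Reads from exons outside the deleted one still count. The 10 Schwann cell markers used summed to 205 to 1193 CPM in the controls and to 1036, 3695 and 324 CPM in the mutants, with 4 of the 10 higher. Without Egr2, tested only because of its mutant reads, 3 of 9 were higher. That list includes Mbp, which the oligodendrocytes of the central nervous system also express. The 13 central nervous system markers summed to 2411 to 2912 CPM in the controls and 2063 to 3192 CPM in the mutants with 1 gene higher and 1 lower. The higher gene, Slc17a7, was tested only because of its mutant reads, and of the other 12 none was higher. Per kilobase of gene length, the central nervous system markers summed to 442, 430 and 562 CPM in the controls against 72.6, 51.0 and 195 for the Schwann cell markers, and only in mutant 2 were the Schwann cell markers higher (810.2 against 598). The libraries labelled sciatic nerve thus held more RNA of central nervous system markers than of Schwann cell markers, except that of mutant 2.

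Smooth muscle and pericyte markers were higher for 5 of 10, with sums of 214 to 274 CPM in the controls and 650, 376 and 382 CPM in the mutants. Without Cnn1 and Lmod1, tested only because of their mutant reads, 4 of 8 were higher. Of the 10, 7 were highest in mutant 1, 2 in mutant 2 and 1 in mutant 3. Acta2 and Myh11, the smooth muscle actin and myosin, had 114 and 85.7 CPM in mutant 1, 6.55 and 4.86 in mutant 2 and 13.9 and 5.30 in mutant 3, and neither passed the test (adjusted p = 0.0502 for each). Tagln, another smooth muscle gene, was at 0.631 to 0.975 CPM in the controls and at 0.363, 0.273 and 0.583 CPM in the mutants (log2 fold change -0.90, adjusted p = 0.189). These 3 genes were chosen after their values were seen. All 10 Schwann cell markers were highest in mutant 2. Fibroblast markers were higher for 5 of 8 (324 to 1213 and 2073 to 3212 CPM), and for 4 of 7 without Lum, tested only because of its mutant reads. Sensory neuron markers were higher for 10 of 12 (187 to 243 and 399 to 1060 CPM), and for 7 of 9 without those tested only because of their mutant reads. The single adipocyte marker tested, Fabp4, was higher and was likewise tested only because of its mutant reads. Of all genes that reached the filter level in every control, 8.31% were higher. None of the 5 tendon and 3 brown adipocyte markers tested was higher. The part of these tissues in the result for the skeletal muscle genes was not tested.

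**Figure D5:**
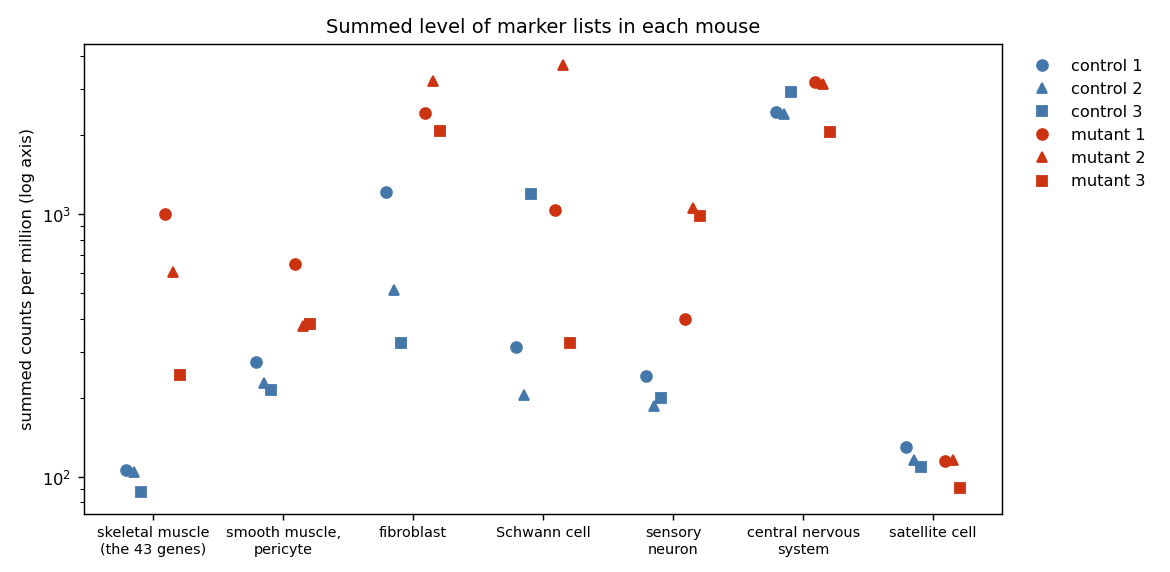
Summed CPM of the 43 skeletal muscle genes and of 6 marker lists in each mouse, on a log axis, with controls in blue and mutants in red. The skeletal muscle sums run from 87.4 to 106.5 CPM in the controls and from 245 to 1002 CPM in the mutants, and the Schwann cell sum of mutant 2 stands above all others at 3695 CPM.

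The 43 genes have known limits of counting. In the GENCODE M21 annotation, 17 of them share exon bases with a gene on the other strand, 6 of these for more than 10% of their exon bases (Myh7, Tnnc2, Cacna1s, Atp2a1, Ckm and Mb), and 11 have a stretch of 200 bases or more that is at least 95% identical to a transcript of another gene, such as Myh6 for Myh7. The source of the counts does not state whether strand was used, so reads from the overlapping genes cannot be told apart. The fold changes of those 6 genes are uncertain to that extent.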

How the data were processed

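Total RNA of 6 sciatic nerves was sequenced, and the authors deposited counts, whole numbers of reads per gene that were not normalized. The labels name an NEBNext Ultra kit and the methods its directional version. The submitters' processing notes name mm10. The aligner, the counting tool and its strand setting are not given in the sources used here. The authors tested with DESeq2.

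Here, columns were matched to mice by genotype and number. The libraries held 17699904 to 18678170 counts. Every 2 libraries differed by more than sampling noise. Genes were kept by filterByExpr (17099 of 54532), scaled by TMM and tested in one quasi-likelihood fit by genotype with edgeR 4.0.16 in R 4.3.3, with Benjamini-Hochberg adjustment over all genes tested. CPM use the TMM scaled library sizes. On simulated data, 200 of 200 genes changed by 2.5 on the log2 scale were recovered with 9 false calls. The study describes its P3 controls as littermates, but the labels do not say which mice shared a litter or day, and p-values measure the spread between these mice.

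The 43 genes and all lists were chosen with earlier results of these data known. All 43 could be named. Of the 81 other muscle genes, the 8 with the largest log2 fold change at an adjusted p under 0.05, no overlap between genotypes and 1 CPM or more in each library of the genotype with the higher level were named, with Musk, Rapsn, Dok7, Chrnb1, Chrne and Pax7 whatever their values. Of these lists, 1 muscle gene is not named and 2 Schwann cell markers were left out, as they are not reported here. Isoform pairs were compared as log2 ratios of scaled counts with a pseudocount of 1, and heavy chain shares used the gene lengths in the table. Positions and overlaps came from GENCODE M21, near-identical transcripts from BLAST 2.17.0. Alternatives were other scalings, filters and tests (DESeq2 1.42.0, limma 3.58.1), a block for the replicate number, and leaving out each mouse.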

Additional observations from a re-analysis of the deposited data

How the results depend on the processing

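With other scalings (RLE, upper quartile, library totals), with no filter and with DESeq2, the number of the 43 genes called higher stayed between 19 and 26, and none was called lower under any alternative. The calls gained with DESeq2 were those of Myh7 (adjusted p = 0.00203), Tnni1 (0.00986) and Pygm (0.0167). The fit without a filter gained the same genes and Neb, Myh1, Myh2 and Myot. Keeping only genes with 10 counts in every library removes genes that are near 0 in the controls, and it gave 9 higher genes, 6 past a log2 fold change of 2 and a median log2 fold change of 1.62. limma voom gave 10 higher genes, 10 of them past a log2 fold change of 2, and the cause was not tested. Leaving out 1 mouse at a time gave 3 to 25 higher genes, 3 to 21 past a log2 fold change of 2 (each lowest without control 2), no lower gene, and a median of 2.29 to 3.00. Of the 19 calls, 3 (Myl1, Mylpf, Sln) held under every alternative that tested them. None of these 3 was tested with 10 counts in every library, and all 3 passed the filter only with their mutant reads.

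The replicate numbers shared by the genotypes gave no sign of pairing. The deviations of same-numbered mice had correlations of -0.01, -0.17 and -0.24, and those of differently numbered mice ran from -0.0678 to 0.221. With so few mice these correlations cannot show whether mice shared a litter or day. A block for the number kept 13 of the 19 calls, all 13 past a log2 fold change of 2, and gave a median of 2.25.

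The difference of the ratio of Myh3 to Myh8 was -1.49 and reversed to 0.12 without mutant 1. The log2 fold change of Ryr1 was near 0 and reversed to -0.00723 with RLE scaling or DESeq2 and to -0.00149 without a filter, and without 1 mouse it ran from -0.147 (without control 3) to 0.143. Without 1 mouse, that of Actn3 ran from -0.0905 (without mutant 1) to 0.783, that of Dok7 from -0.0645 (without control 3) to 0.132 and that of Pax7 from -0.0628 (without control 3) to 0.665. Leaving out 1 mouse moved the other ratio differences to -3.75 to -1.72 (troponin I), -2.09 to -0.71 (troponin T), 0.31 to 1.21 (troponin C), 0.05 to 1.12 (myosin binding protein C), -4.17 to -2.53 (Myl3 to Myl1), -5.62 to -4.31 (Myl4 to Myl1), -2.49 to 0.12 (Myh3 to Myh8) and 0.57 to 1.43 (alpha actinin). The mean Myh8 share of the mutants was 63.7% per gene length, 74.0% with no length scaling and 51.3% to 70.5% without 1 mutant. Low counts limit what can be read from the receptor subunits and myogenic factors. Of these and the adult fast heavy chains, only Chrna1 passed the filter. Myh1 had 169 and 118 reads in mutant 1 and 2, and Myh2 had 197 in mutant 2. Both missed the filter with 8 and 6 reads in mutant 3.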
